A study of Homo sapiens with 16 samples.

Results

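The intercellular adhesion molecule genes and the vascular cell adhesion molecule gene, ICAM1, ICAM2, ICAM3, ICAM4, ICAM5 and VCAM1, are 6 of the 19970 protein-coding genes whose promoters were read here. They were listed by name, and p65 signal was read in every 200-bp bin from 50 kb upstream to 10 kb downstream of each, which gave 1634 bins on chromosomes 1, 17 and 19 (GRCh38). A bin was listed as enriched in a group when the mean of its ChIP libraries reached 2 and was at least 4 times the input of the same cells. The study mapped p65, the transactivating subunit of NFκB, by ChIP-Seq in HT29 and SW480, 2 human colorectal adenocarcinoma cell lines that were stably transfected with estrogen receptor beta (ERβ, encoded by ESR2) or with an empty vector (mock). All cells of the ChIP libraries, the mock cells included, had received TNFα at 30 ng/ml for 30 min before they were crosslinked with DSG and formaldehyde, so every comparison below is between treated cells, and cells without TNFα were not analysed here. The 4 groups were HT29 mock, HT29 ERβ, SW480 mock and SW480 ERβ, each with 3 ChIP libraries and 1 input, 16 tracks in all. The inputs of both ERβ lines are shared with another deposited series of the study's authors, and the sources do not say how many transfected clones a line stands for. The cells are epithelial tumour cells, while ICAM2, ICAM3, ICAM4, ICAM5 and VCAM1 are known mainly from endothelium, leukocytes, red cells and neurons.

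ICAM and VCAM proteins are membrane proteins with immunoglobulin domains that bind integrins on leukocytes and so let these cells adhere to endothelium and epithelium and cross them. ICAM1 is a ligand of LFA-1 and Mac-1 and VCAM1 a ligand of VLA-4, and both genes are textbook targets of NFκB in cells treated with TNFα. ICAM2 is a constitutive LFA-1 ligand of endothelium and platelets, ICAM3 is carried by resting leukocytes, ICAM4 is the Landsteiner-Wiener antigen of red cells, and ICAM5 (telencephalin) is found on neurons of the forebrain. ICAM1, ICAM4, ICAM5 and ICAM3 lie in this order in a cluster on chromosome 19, next to TYK2, which encodes a kinase of cytokine receptors.

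The tracks were scaled by the authors to one total, so they do not show the depth of a library, and values are tag densities per base. The ESR2 transgene was visible in the tracks, because the signal over ESR2 coding exons was 2.40 to 6.93 times that over its introns in the 6 ERβ ChIP libraries and 1.05 to 1.62 times in the 6 mock ones. Libraries also differed in their general p65 enrichment. Over the 25545 bins of the genome that were tested, the mean log2 level was 1.67 in replicate 1 of HT29 mock and 1.54 in replicate 1 of HT29 ERβ, against 1.06 to 1.20 in the other HT29 libraries. It was 0.98 to 1.11 in SW480 mock, and in SW480 ERβ it was 1.26 in replicate 1 and 1.67 and 1.63 in the other libraries. Replicate 1 stood apart in the same way in the ICAM windows, where it was the highest of its group in 23 of 25 tested bins in HT29 mock and in 22 in HT29 ERβ, and the lowest in 19 in SW480 ERβ.

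The sequences that carry the signal are given here with those that do not. The first 5 are 200-bp bins with enriched signal in at least 1 group, and the last is the 150 bases before the VCAM1 start, which holds a κB match but had no enriched bin. All are from GRCh38, 5′ to 3′ on the strand of the gene, and capitals mark matches on either strand to the NFκB (κB) consensus, exact where the bin holds an exact match and otherwise, as well as for VCAM1, with at most 1 mismatch.
ICAM1 promoter, chr19:10270801-10271000, plus strand: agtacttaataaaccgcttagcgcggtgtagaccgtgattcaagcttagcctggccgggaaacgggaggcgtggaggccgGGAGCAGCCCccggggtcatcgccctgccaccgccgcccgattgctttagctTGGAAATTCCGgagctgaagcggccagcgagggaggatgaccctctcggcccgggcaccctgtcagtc
1420 bp upstream of ICAM1, chr19:10269601-10269800, plus strand: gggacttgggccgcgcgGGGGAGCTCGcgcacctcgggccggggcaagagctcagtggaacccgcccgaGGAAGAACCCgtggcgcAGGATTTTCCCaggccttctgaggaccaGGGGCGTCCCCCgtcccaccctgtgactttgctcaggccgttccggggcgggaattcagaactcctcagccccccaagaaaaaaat
ICAM2 intron, chr17:64020201-64020400, minus strand: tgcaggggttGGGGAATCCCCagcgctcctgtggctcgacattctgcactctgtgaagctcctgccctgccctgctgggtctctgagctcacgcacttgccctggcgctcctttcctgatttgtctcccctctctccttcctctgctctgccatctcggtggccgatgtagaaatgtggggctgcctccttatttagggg
8467 bp upstream of ICAM2, chr17:64029001-64029200, minus strand: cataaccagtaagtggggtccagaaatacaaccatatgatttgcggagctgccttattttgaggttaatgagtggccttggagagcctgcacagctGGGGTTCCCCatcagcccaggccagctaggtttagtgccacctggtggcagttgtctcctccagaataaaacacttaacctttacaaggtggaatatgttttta
TYK2 promoter, chr19:10380801-10381000, minus strand: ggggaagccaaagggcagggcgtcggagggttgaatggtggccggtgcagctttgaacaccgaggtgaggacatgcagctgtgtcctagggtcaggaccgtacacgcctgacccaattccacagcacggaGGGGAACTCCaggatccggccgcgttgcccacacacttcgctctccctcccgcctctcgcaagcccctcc
VCAM1 upstream, chr1:100719592-100719741, plus strand: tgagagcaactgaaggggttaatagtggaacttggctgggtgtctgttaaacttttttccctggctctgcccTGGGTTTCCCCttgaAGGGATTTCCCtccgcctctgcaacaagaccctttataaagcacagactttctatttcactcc
The ICAM1 promoter bin held no exact κB match. Of its matches with 1 mismatch, TGGAAATTCC at chr19:10270933-10270942, which overlaps another, was the nearest to the position of the highest signal; it was centred 11.5 bp from it and 183 bp upstream of the start. Exact matches were centred 0.5 bp from the summit upstream of ICAM2 (GGGGAACCCC), 39.5 bp from it in ICAM2 (GGGGATTCCC) and 65.5 bp from it at TYK2 (GGGGAACTCC). These are matches of letters and not measured sites.

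Of the 1634 bins, 11 were listed in at least 1 group, and they formed 7 stretches. The count was 8 bins in HT29 mock, 5 in HT29 ERβ, 3 in SW480 mock and 9 in SW480 ERβ. In SW480 mock, chr17:64020201-64020400, chr19:10271001-10271200 and chr19:10381001-10381200 had means of 3.23, 2.12 and 2.19 and failed only on the input. That single input read 0.81, 0.67 and 0.99 there, and the SW480 ERβ input 0.586, 0.38 and 0.49. The counts of the 2 SW480 groups therefore rest in part on 1 input library each. Across the genome the same rule listed 6123, 4067, 1499 and 9577 of 15155200 bins, so the order of the groups in these windows is the order of the whole tracks. Leaving out replicate 1 gave 4 bins in HT29 mock, 1 in HT29 ERβ and 16 in SW480 ERβ. Across the genome the counts then became 3498, 2129 and 12160, so they moved in the same directions. The windows of ICAM1, ICAM4 and ICAM5 overlap and shared the same 5 listed bins, all of them upstream of ICAM1 or at its start. The window of ICAM2 held 3, that of ICAM3 held 2, both at the TYK2 promoter, and that of VCAM1 held none. The remaining bin lay at the FDX2 promoter within the chromosome 19 cluster, between the windows of ICAM5 and ICAM3. The map of the cluster shows that, past the bin over the ICAM1 start, no listed bin lay in the bodies of ICAM1, ICAM3, ICAM4 or ICAM5.

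**Figure D1:**
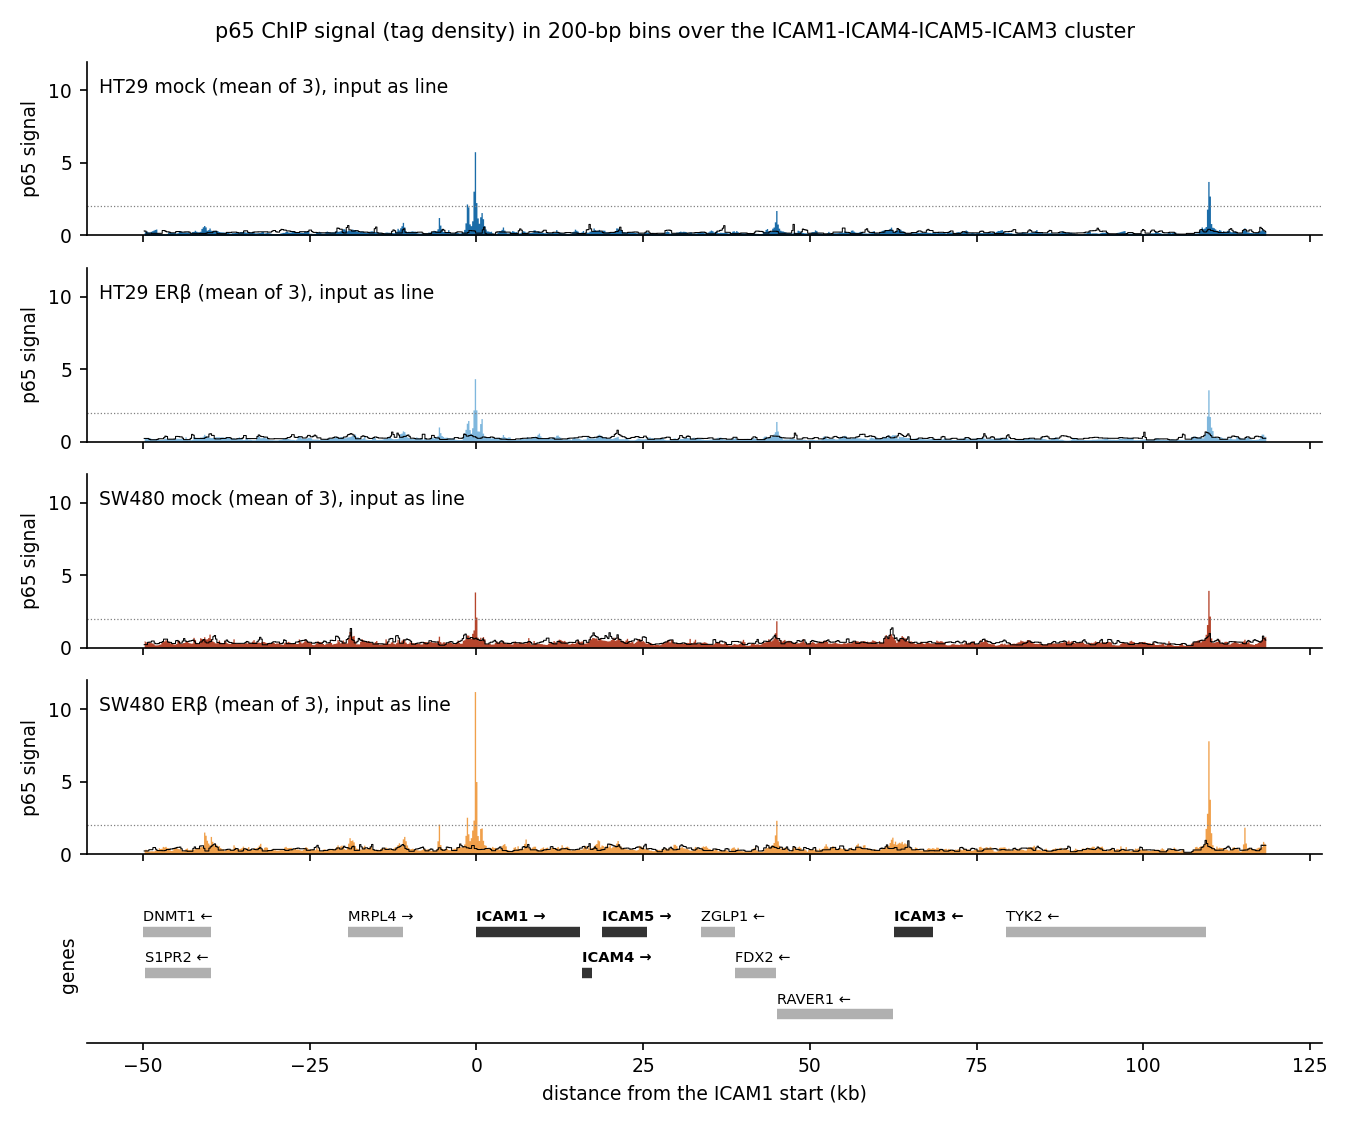
p65 signal (tag density) in 200-bp bins over the ICAM1-ICAM4-ICAM5-ICAM3 cluster, plotted by distance from the ICAM1 start in kb; bars are the mean of 3 ChIP libraries, the line is the input, the dotted line the level of 2 used for listing, and the genes with their direction are drawn below. The ICAM1 promoter (5.78 in HT29 mock, 11.2 in SW480 ERβ) and the TYK2 promoter (3.72 and 7.81) stand above the dotted line in all 4 groups.

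ICAM1 (ENSG00000090339.9, chr19:10271093-10286615, plus strand) had the highest signal of the 6 genes. The highest bin, chr19:10270801-10271000, lies in the promoter with its centre 220 bp upstream of the start, within an intron of the antisense transcript LIMASI. Its 3 libraries read 8.90, 4.87 and 3.56 in HT29 mock and 6.22, 2.74 and 4.07 in HT29 ERβ. They read 3.40, 2.84 and 5.32 in SW480 mock and 9.10, 12 and 12.5 in SW480 ERβ, while the 4 inputs were between 0.30 and 0.629. All SW480 ERβ libraries were above all other libraries, and the other 3 groups overlapped. The share of all tested bins with such a separation is not given, so separations of libraries here and below are descriptions. The group means were 5.78 ± 2.78, 4.34 ± 1.75, 3.85 ± 1.30 and 11.2 ± 1.84 (SD, n = 3). That is 19.3, 12.8, 6.13 and 29.5 times the inputs, which read 0.30, 0.34, 0.629 and 0.38 with 1 library each. By the mean of the 12 libraries the bin ranked 445 of 25545.

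The question of the study for this gene is whether ERβ changes p65 occupancy in each line. In SW480 the ICAM1 promoter bin with ERβ was 2.91 times the mock level, a log2 difference of 1.35 (SE 0.39, 95% interval 0.58 to 2.12, limma adjusted p = 0.00846) on the log2(signal + 1) scale. In HT29 it was 0.752 times the mock level, a log2 difference of -0.32 (SE 0.39, 95% interval -1.09 to 0.45, limma adjusted p = 1.00), which does not show that ERβ had no effect there. The difference between the ERβ effects of the lines (the interaction) was 1.67 (95% interval 0.58 to 2.76, limma adjusted p = 0.0453). The median of all tested bins was itself 0.43 for SW480 ERβ minus mock and 0.56 for the interaction. When libraries were scaled so that tested bins had equal levels, these medians became -0.04 and -0.03, and the ICAM1 differences became 0.63 (limma adjusted p = 0.0431) and 0.78 (limma adjusted p = 0.176), so the interaction was no longer called. The SW480 difference was also not called without SW480 mock replicate 1 (1.30, limma adjusted p = 0.0544), SW480 mock replicate 2 (1.20, limma adjusted p = 0.0756) or SW480 ERβ replicate 3 (1.27, limma adjusted p = 0.0619). The interaction was lost without any 1 of 7 libraries, with limma adjusted p from 0.0967 to 0.167; these were HT29 mock replicate 1, HT29 ERβ replicates 2 and 3, SW480 mock replicates 1 and 2 and SW480 ERβ replicates 2 and 3.

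Between the lines, the ICAM1 promoter bin was higher in SW480 ERβ than in HT29 ERβ by 1.23 (limma adjusted p = 0.00714). This call was lost without HT29 ERβ replicate 2 (1.00, limma adjusted p = 0.0704). Without ERβ the lines differed by -0.44 (SW480 minus HT29, limma adjusted p = 0.409), and the libraries overlapped.

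**Figure D2:**
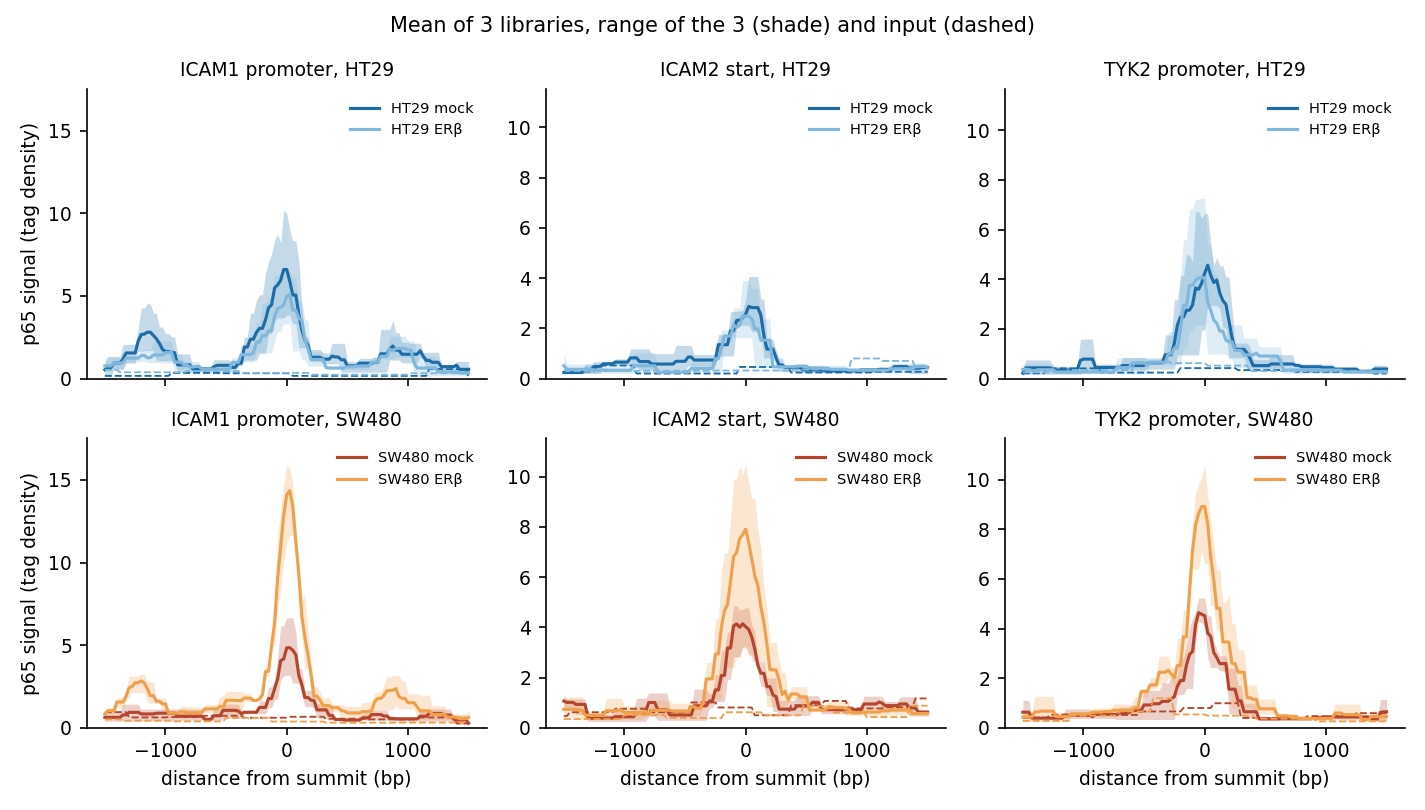
p65 signal (tag density) against the distance in bp from the summit at the ICAM1 promoter, the ICAM2 start and the TYK2 promoter, with HT29 above and SW480 below; lines are means of 3 libraries, shades their range and dashed lines the inputs. In SW480 the ERβ libraries stand above the mock ones at the ICAM1 bin (means 11.2 and 3.85) and the TYK2 bin, while at the ICAM2 bin 1 ERβ library (2.70) lies within the mock range; in HT29 the ranges overlap in all 3 bins.

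The signal at ICAM1 reached beyond that bin. The neighbour on the start side, chr19:10271001-10271200, had group means of 2.27, 2.19, 2.12 and 5.0 in the order HT29 mock, HT29 ERβ, SW480 mock and SW480 ERβ, and rose with ERβ in SW480 by 0.94 (limma adjusted p = 0.0421), a call that leaving out any 1 of the 6 SW480 libraries ended (limma adjusted p from 0.0544 to 0.132). The neighbour farther upstream, chr19:10270601-10270800, which holds an exact κB match (GGAGGATTCC), had means of 3.05, 2.19, 1.23 and 2.34. It was listed in both HT29 groups, while SW480 ERβ reached 3.99 times its input, just under the 4 needed, and its SW480 difference of 0.58 did not pass (limma adjusted p = 0.183) unless the replicate block was used (limma adjusted p = 0.0134), and was 0.055 with libraries scaled to tested bins (limma adjusted p = 0.921).

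Smaller signal lay upstream of ICAM1 in LIMASI introns. At chr19:10269601-10269800, 1420 bp upstream, the libraries read 3.19, 1.66 and 1.66 in HT29 mock and 1.32, 1.20 and 1.29 in HT29 ERβ. They read 0.415, 0.968 and 1.28 in SW480 mock and 1.97, 2.82 and 2.83 in SW480 ERβ. Here no library of a group overlapped those of the group it was compared with in either line, with ERβ lower in HT29 and higher in SW480. Another tested bin, near the ICAM1 start, separated in the same way. The share of all tested bins that do so is not given here, so this is no result about the bin 1420 bp upstream. The ERβ minus mock difference was -0.45 in HT29 (limma adjusted p = 1.00) and 0.92 in SW480 (limma adjusted p = 0.0182), and the interaction was 1.37 (limma adjusted p = 0.0297). SW480 mock was lower than HT29 mock by a log2 difference of -0.74 (limma adjusted p = 0.0435). The 3 called values were not called with libraries scaled to tested bins (0.44, 0.74 and -0.47, limma adjusted p of 0.214, 0.222 and 0.0524), and the interaction was also lost without any 1 of the same 7 libraries as at the promoter (limma adjusted p from 0.0648 to 0.148). The SW480 call was lost without SW480 mock replicate 1 or 2 or ERβ replicate 2 or 3 (0.0557 to 0.181), and the mock line call without HT29 mock replicate 1 or SW480 mock replicate 1 or 2 (0.0892 to 0.272).

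Inside the first part of the gene, chr19:10271801-10272000 in an intron 780 bp after the start was not listed, but rose with ERβ in SW480 by 0.83 (limma adjusted p = 0.0233), with 0.610, 0.408 and 0.630 in mock and 1.27, 1.5 and 2.63 in ERβ. Without any 1 of the SW480 libraries other than ERβ replicate 1, this call was lost (limma adjusted p from 0.0517 to 0.202).

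**Figure D3:**
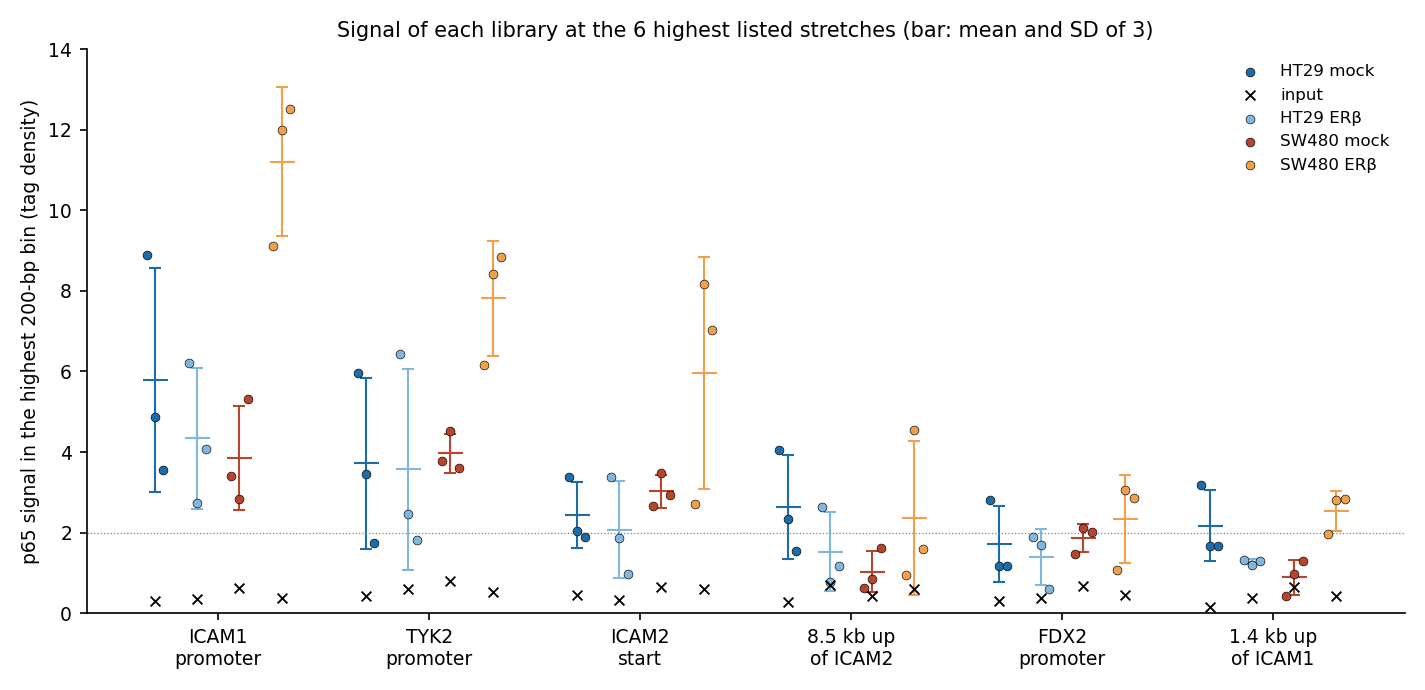
p65 signal (tag density) of each library in the highest 200-bp bin of the 6 listed stretches with the highest signal; points are libraries, bars the mean and SD of 3, crosses the input and the dotted line the level of 2. All SW480 ERβ points are above all other points at the ICAM1 promoter, from 9.10 to 12.5; at the FDX2 promoter all groups overlap.

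ICAM2 (ENSG00000108622.11, chr17:64002594-64020634, minus strand) was the other member with enriched bins at its own start. In chr17:64020401-64020600, with its centre 133 bp after the start, the HT29 mock libraries read 3.39, 2.03 and 1.88 and the HT29 ERβ libraries 3.37, 1.87 and 0.977. In SW480 they read 2.66, 3.47 and 2.95 without ERβ and 2.70, 8.17 and 7.02 with it. Replicate 1 of SW480 ERβ lay within the mock range and the others well above it. Means were 2.43 ± 0.828, 2.07 ± 1.21, 3.03 ± 0.409 and 5.97 ± 2.88 (SD, n = 3), at 5.29, 6.48, 4.64 and 10.0 times the input.

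The ERβ minus mock difference at this bin was -0.21 in HT29 (95% interval -0.92 to 0.51) and 0.69 in SW480 (95% interval -0.02 to 1.41, limma adjusted p = 0.157). With the replicate number as a block within lines, the SW480 difference passed (limma adjusted p = 0.00519), as did the interaction of 0.90 (limma adjusted p = 0.0129, against 0.227 without the block). After scaling to tested bins, they were 0.0024 (limma adjusted p = 0.997) and 0.09 (limma adjusted p = 0.938). SW480 ERβ was above HT29 ERβ by 1.15 (limma adjusted p = 0.00683), which was lost without HT29 ERβ replicate 3 or SW480 ERβ replicate 2 or 3 (limma adjusted p from 0.0537 to 0.0876). The intron bin next to it, whose sequence with the exact κB match is given above, had means of 1.79, 1.80, 3.23 and 5.81 and was listed in SW480 ERβ only, since SW480 mock reached 3.99 times its input.

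Farther upstream of ICAM2, at chr17:64029001-64029200, between genes, the signal was listed in HT29 mock only, although SW480 ERβ had a mean of 2.36 at 3.87 times its input. HT29 mock libraries read 4.06, 2.33 and 1.53 and HT29 ERβ libraries 2.63, 0.779 and 1.18. SW480 libraries read 0.624, 0.854 and 1.61 without ERβ and 0.944, 4.54 and 1.6 with it, so 1 of the 3 ERβ libraries set that mean. SW480 mock was lower than HT29 mock by a log2 difference of -0.81 (limma adjusted p = 0.0375), which was lost without HT29 mock replicate 1 or SW480 mock replicate 1 or 2 (limma adjusted p from 0.107 to 0.216) and with libraries scaled to tested bins (-0.52, limma adjusted p = 0.0511). The ERβ effects were -0.53 in HT29 (limma adjusted p = 1.00, or 0.414 with the replicate block) and 0.61 in SW480 (limma adjusted p = 0.150), and the SW480 effect passed with the block (limma adjusted p = 0.0129). Their difference was 1.14 (limma adjusted p = 0.0886, or 0.00170 with the block). Scaled to tested bins, the SW480 effect was 0.11 (limma adjusted p = 0.839) and the interaction 0.53 (limma adjusted p = 0.488).

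ICAM3 (ENSG00000076662.11, chr19:10333776-10339661, minus strand) had no listed bin at its own promoter. The enriched stretch of its window was the TYK2 promoter, where chr19:10380801-10381000 lies 328 bp upstream of the TYK2 start. HT29 mock libraries read 5.97, 3.45 and 1.75 there and HT29 ERβ libraries 6.44, 2.47 and 1.82. SW480 mock libraries read 3.77, 4.51 and 3.61 and SW480 ERβ libraries 6.17, 8.42 and 8.84, which did not overlap. The SW480 difference was 0.82 (95% interval 0.06 to 1.58, limma adjusted p = 0.115), and it passed with the replicate block (limma adjusted p = 0.000920) but was 0.10 with libraries scaled to tested bins (limma adjusted p = 0.842). HT29 ERβ minus mock was -0.08, and SW480 ERβ was above HT29 ERβ by 1.06 (limma adjusted p = 0.0200), which was lost without replicate 2 or 3 of either group (limma adjusted p from 0.0657 to 0.158).

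Another bin of this window, chr19:10386201-10386400, lies 5728 bp upstream of TYK2 between genes and never reached the listed level. Its libraries read 0.896, 0.410 and 0.260 in HT29 mock, 0.180, 0.413 and 0.160 in HT29 ERβ and 0.352, 0.751 and 0.686 in SW480 mock, against 1.53, 1.76 and 2.26 in SW480 ERβ. SW480 ERβ stood above all other libraries. The mean of the other 9 libraries was 0.456, under the level of 0.75 for testing, so the bin was tested only through the group where it was high and had to differ there. Its calls are therefore a description: the SW480 difference was 0.84, the difference between the ERβ lines 1.19 and the interaction 1.1, and with libraries scaled to tested bins the SW480 difference was 0.42 and the interaction 0.59.

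ICAM4 (ENSG00000105371.10, chr19:10286955-10288522) and ICAM5 (ENSG00000105376.5, chr19:10289952-10296778), both on the plus strand, had no listed or tested bin of their own, although their windows reach back over the ICAM1 promoter. Between them and ICAM3, the bin chr19:10316001-10316200 at the promoter of FDX2, which encodes a mitochondrial ferredoxin, was listed in SW480 ERβ only. Its means were 1.72, 1.39, 1.87 and 2.33, and its ERβ minus mock differences were -0.18 in HT29 and 0.16 in SW480 (limma adjusted p = 0.716).

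VCAM1 (ENSG00000162692.12, chr1:100719742-100739045, plus strand) had no enriched bin in any group. None of the 398 bins of its window reached a mean of 0.75, the level for testing. The highest by the mean of the 12 libraries was chr1:100684201-100684400 with 0.505, and the highest mean of any group in any bin was 0.720. Signal at its promoter was 0.312, 0.376, 0.348 and 0.313 in the 4 groups and 0.347, 0.351, 0.275 and 0.265 in their inputs. The sequence before its start held an exact κB match centred 58 bp upstream (GGGATTTCCC) and one with 1 mismatch 74 bp upstream (TGGGTTTCCC), so these letters were present where no enrichment was detected.

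Motif letters were searched on both strands, with the κB consensus taken by name, AP-1 as TGACTCA and the GC box as GGGCGG. The estrogen response element was taken as GGTCA and TGACC with 3 free bases between them, the STAT element (GAS) as TTCC and GGAA with 1 between, and the interferon regulatory factor element as GAAA and GAAA with 2 between. An exact κB match was present in 5 of the 11 listed bins, or 45.5%, against 32.0% of all 25545 tested bins, 2.91% of all 200-bp bins and 9.26% of 27305 RefSeq promoters of 300 bases. Listed bins were chosen at a higher level of signal than tested bins. Of the 7 stretches 5 held an exact match, but a stretch can join up to 3 listed bins, so shares of single bins are no measure for it. The exact match of the ICAM1 promoter stretch lay 301.5 bp from its summit. With 1 mismatch allowed, 10 of 11 bins matched, as did 73.9% of tested bins. AP-1 was found in 1 listed bin (FDX2), GAS in 1 (ICAM1, TTCCGGGAA centred 71 bp upstream of the start and overlapping a κB match with 1 mismatch) and the GC box in 4. Of all tested bins, 8.81% held AP-1, 1.28% GAS and 21.0% the GC box. No listed bin held the estrogen response element, which was present in 0.0313% of tested bins, or the interferon regulatory factor element, present in 2.91%. The ICAM3 and ICAM4 promoters held exact κB matches 641 and 629 bp upstream, and those of ICAM2 and ICAM5 none. The ICAM2 promoter, read to 100 bp after the start, does not include the exact match of the ICAM2 intron bin.

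Of the 1634 bins, 25 passed the level for testing (a mean of at least 0.75 over the 12 ChIP libraries and at least 2 times the inputs), among them all 11 listed ones. A call is a limma adjusted p under 0.05 over all 25545 tested bins. For HT29 ERβ minus mock, limma called 0 of the 25 in either direction, and 0.00391% of all tested bins were called higher and 0.00391% lower. At an unadjusted p under 0.05 there were 0 higher (0.145% of all tested bins) and 1 lower (1.55%). For SW480 ERβ minus mock, 5 bins rose (18.8% of all tested bins) and 0 fell (0.00391%), namely 3 at the ICAM1 promoter and intron, 1 upstream of ICAM1 and 1 upstream of TYK2. Of the 25 bins, 6 reached the testing level only through the SW480 ERβ libraries, among them the bin upstream of TYK2, so for them a higher SW480 ERβ level is part of how they were chosen. Of the 19 that reached it without those libraries, 4 rose, and of 19042 such bins in the genome 12.9% did. The difference was above 0 in 24 of 25 bins in SW480 and in 5 of 25 in HT29, with medians of 0.58 and -0.16 against 0.43 and -0.11 over all tested bins. It was above the median of all tested bins in 17 of 25 bins in SW480 and in 11 of 25 in HT29. These medians and counts, too, are over bins chosen with all 12 libraries.

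That count moved with each SW480 library left out. It was 0, 1 and 3 without mock replicates 1, 2 and 3 (8.52%, 10.2% and 14.1% of all tested bins), and 12, 2 and 1 without ERβ replicates 1, 2 and 3 (33.3%, 8.40% and 8.97%). With the replicate block, 17 of the 25 were called higher in SW480 and 13 in the interaction, against 12210 and 10262 over all tested bins. With libraries scaled to tested bins, 1 of the 25 was called, the ICAM1 promoter, and the calls over all tested bins moved from 4794 higher and 1 lower to 1071 higher and 252 lower.

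The interaction was called higher in 3 of the 25 bins (7.09% of all tested bins) and lower in 0 (0%). These were the ICAM1 promoter, the bin 1420 bp upstream of it and the bin 5728 bp upstream of TYK2, the last tested only through SW480 ERβ. Of the 19 bins that reached the level without SW480 ERβ 2 were called, against 4.41% of such bins in the genome. The count of 3 was 0 without HT29 mock replicate 1, HT29 ERβ replicate 3 or SW480 mock replicate 1, and 1 without HT29 ERβ replicate 2, SW480 mock replicate 2 or SW480 ERβ replicate 2 or 3. The calls over all tested bins under these omissions are not given here, so the lower counts do not show whether calls fell in these bins alone. The count was 10 without HT29 ERβ replicate 1 and 5 without SW480 ERβ replicate 1, when 6417 and 4972 of all tested bins were called in place of 1812. With libraries scaled to tested bins it was 0, and 265 higher and 25 lower were called over all tested bins.

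Between the mock lines, 0 bins were higher in SW480 (6.38% of all tested bins) and 3 lower (24.5%). The 3 were the bins 1420 bp upstream of ICAM1, 780 bp inside it and 8467 bp upstream of ICAM2, and none was called without HT29 mock replicate 1 or SW480 mock replicate 1 or 2, while 5 were without HT29 mock replicate 2. These omissions are not set against the calls over all tested bins, so the counts are no result about these bins alone. Under scaling to tested bins the balance turned, with 5 of the 25 higher and 1 lower. Between the ERβ lines, 10 bins were higher in SW480 (30.0%) and 0 lower (9.95%), namely 4 in a row at the ICAM2 start, 2 at the ICAM1 promoter, 2 at the TYK2 promoter, the bin 5728 bp upstream of TYK2 and chr19:10230201-10230400 near the start of S1PR2, a sphingosine-1-phosphate receptor gene. The last differed by 0.69. It was tested only through SW480 ERβ, since the mean of the other 9 libraries was 0.651, as were the bin upstream of TYK2 and 2 of the 4 at the ICAM2 start. Of the 19 bins that reached the level without SW480 ERβ 6 were called higher, against 18% of such bins in the genome. The count of 10 was 5 and 6 without HT29 ERβ replicates 2 and 3, and 5 and 4 without SW480 ERβ replicates 2 and 3. Calls over all tested bins under these omissions are not given here, so a fall in these bins alone cannot be read from the counts. Scaled to tested bins, calls over the genome moved from 1629 higher and 6270 lower to 5578 and 5590 between the mock lines, and from 7661 and 2542 to 6188 and 6262 between the ERβ lines.

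**Figure D4:**
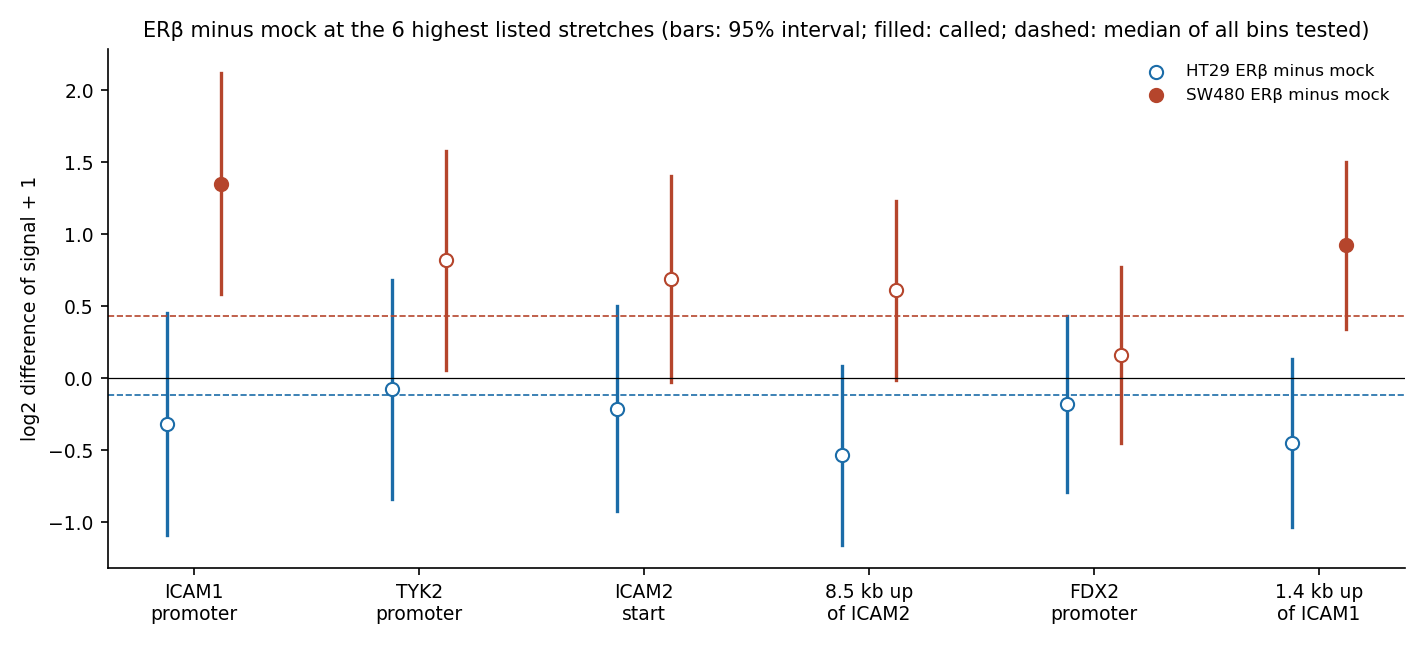
ERβ minus mock difference of log2(signal + 1) at the highest bin of the 6 listed stretches with the highest signal, with HT29 and SW480 side by side; bars are 95% intervals, filled points are called and dashed lines are medians of all tested bins. The SW480 points lie between 0.16 and 1.35 and the HT29 points between -0.53 and -0.08, with the ICAM1 promoter highest in SW480.

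Promoters, taken as the 1 kb before the start with the 100 bp after it, gave 1 value for each gene whatever its level, and 932 of the 19970 read 0 in all ChIP libraries and stay in the shares below. ICAM1 read 3.55, 1.73 and 1.88 in HT29 mock, 2.71, 1.39 and 1.71 in HT29 ERβ, 1.59, 1.54 and 1.92 in SW480 mock and 3.77, 3.90 and 4.24 in SW480 ERβ. Only the SW480 ERβ libraries stood apart from the other libraries at this gene. The ICAM1 promoter ranked 128 of 19970 by its mean, and 192, 218, 246 and 66 in the 4 groups in the order above. ICAM2 ranked 3068, ICAM5 8997, VCAM1 15381, ICAM3 15809 and ICAM4 15831. Means of the last 4 were between 0.209 and 0.743 and those of their inputs between 0.143 and 0.675. For ICAM2, the 100 bp after the start do not reach the summit of its enriched stretch (chr17:64020424), so its promoter values leave that summit out.

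**Figure D5:**
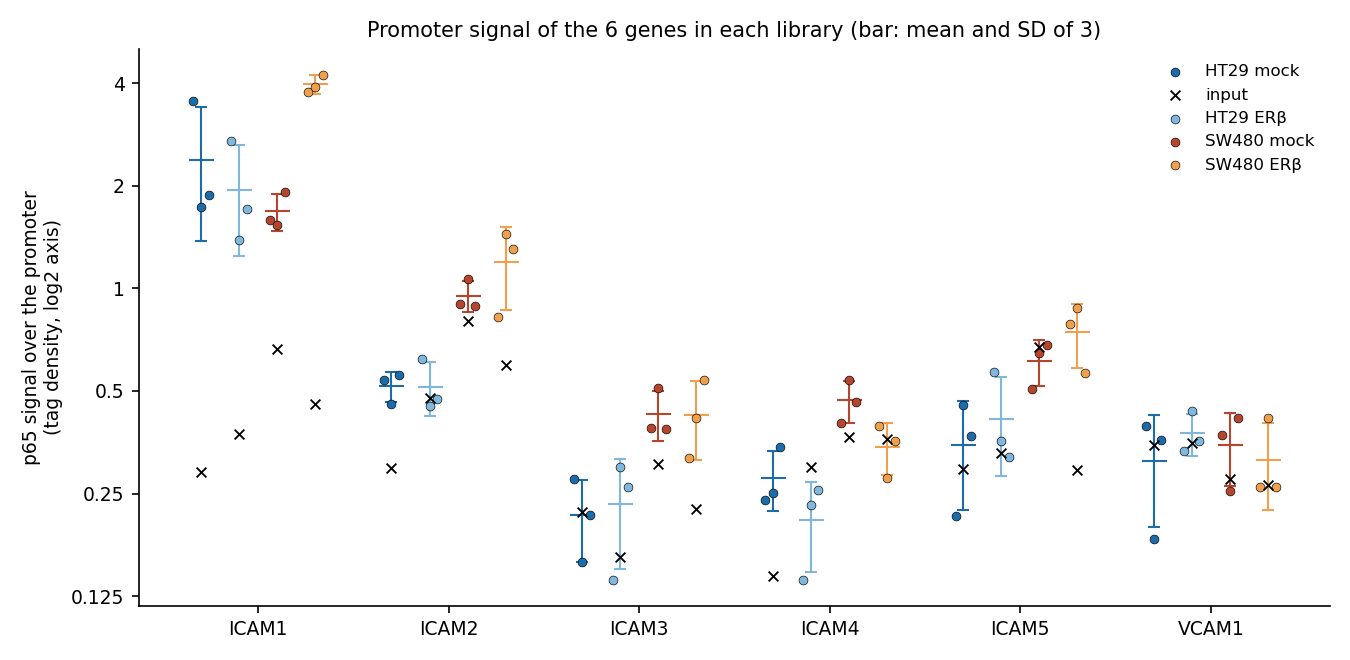
p65 signal (tag density, log2 axis) over the promoters of the 6 genes in each library; points are libraries, bars the mean and SD of 3 and crosses the input. ICAM1 is the one gene with all ChIP points above all its inputs (1.39 to 4.24 against 0.289 to 0.666). At ICAM3, ICAM4, ICAM5 and VCAM1 the range of the points overlaps that of the 4 inputs. Single groups there lie above their own input, as ICAM5 in SW480 ERβ (0.567 to 0.876 against 0.294), or below it, as ICAM4 in HT29 ERβ (0.139 to 0.256 against 0.299).

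For HT29 ERβ minus mock, limma called 0 of the 6 promoters in either direction, with 0% of all promoters called higher and 0% lower, and 0 of the 6 had an unadjusted p under 0.05, which 1.24% of all promoters had with a higher and 2.25% with a lower level. For SW480 ERβ minus mock, 0 were called higher (0.0901% of all promoters) and 0 lower (0.0150%), with 1 higher (ICAM1, 9.39% of all promoters) and 1 lower (ICAM4, 2.23%) at an unadjusted p under 0.05. The ICAM1 difference was 0.89 in SW480 (95% interval 0.41 to 1.37, limma adjusted p = 0.185) and -0.19 in HT29 (95% interval -0.67 to 0.29). It passed in SW480 with the replicate block (limma adjusted p = 0.0195) and with the input subtracted (1.17, limma adjusted p = 0.00767), where 28.3% of all promoters passed. The interaction was called higher in 0 (0%) and lower in 0 (0%), with 1.08 for ICAM1 (limma adjusted p = 0.492, or 0.0381 with the replicate block). VCAM1 differed by 0.07 in HT29 (95% interval -0.09 to 0.24) and -0.04 in SW480 (95% interval -0.20 to 0.13).

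Between the mock lines, 3 promoters were higher in SW480 (13.8% of all promoters) and 0 lower (2.42%). These were ICAM2 by 0.36 (limma adjusted p = 0.0329), ICAM3 by 0.23 (limma adjusted p = 0.0436) and ICAM4 by 0.20 (limma adjusted p = 0.0316). The inputs moved with them, at 0.296, 0.220 and 0.143 in HT29 mock, against 0.80, 0.306 and 0.365 in SW480 mock. With the input subtracted none was called, when 0.386% of all promoters were called higher, and the ICAM2 and ICAM4 differences were -0.086 and -0.040. The count was 0 or 1 without any 1 of the 6 libraries, which is not set against the share of all promoters under these omissions.

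Between the ERβ lines, 4 were higher in SW480 (24.2%) and 0 lower (1.86%), namely ICAM1 by 0.78, ICAM2 by 0.52, ICAM5 by 0.30 and ICAM3 by 0.21 (limma adjusted p of 0.0240, 0.00458, 0.0464 and 0.0487). The count was 1 without HT29 ERβ replicate 2 or 3 or SW480 ERβ replicate 2, and 2 without SW480 ERβ replicate 3. Shares of all promoters under these omissions are not given here, so the lower counts do not show a fall in these genes alone. Inputs of HT29 ERβ and SW480 ERβ were 0.373 and 0.457 at ICAM1, 0.476 and 0.595 at ICAM2, 0.329 and 0.294 at ICAM5 and 0.163 and 0.225 at ICAM3. With the input subtracted, 3 were still called (26.3% of all promoters higher), ICAM1 by 0.85, ICAM2 by 0.59 and ICAM5 by 0.41 (limma adjusted p of 0.0307, 0.0128 and 0.0160), and ICAM3 was not (0.15, limma adjusted p = 0.187). With libraries scaled to tested bins, 0 of the 6 were called, with 0.40 for ICAM1 (limma adjusted p = 0.109) and 0.27 for ICAM2 (limma adjusted p = 0.176), and the median of the 6 moved from 0.25 to 0.09. Under that scaling, promoter calls over the genome moved from 18 higher and 3 lower to 11 and 2210 for SW480 ERβ minus mock, from 2746 and 484 to 6939 and 242 between the mock lines, and from 4831 and 372 to 198 and 258 between the ERβ lines.

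The mean over a whole window needs no choice of bins, and 3 libraries against 3 cannot give a two-sided exact permutation p below 0.1. In SW480 this smallest p was reached for the overlapping windows of ICAM1 (0.442 in mock and 0.524 in ERβ), ICAM4 and ICAM5, with ERβ higher. The exact permutation p was 0.2 for ICAM3 and 0.7 for ICAM2 and VCAM1, and in HT29 it was 0.5 to 1 for the 6 windows. Between lines, all windows gave the smallest p in mock and in ERβ cells, with SW480 higher for the ICAM genes and lower for VCAM1. Here too the inputs had the same direction. The VCAM1 window read 0.365 in HT29 mock, with an input of 0.365, and 0.296 in SW480 mock, with an input of 0.295.

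The promoters whose signal was most like that of ICAM1 over the 12 ChIP libraries, among 1413 with a mean of at least 1, were AMOTL2 (Pearson r = 0.967), KANSL3 (0.960), NCR3LG1 (0.957), CREB3 (0.955) and ITSN2 (0.955). These values describe 12 libraries that share their general enrichment. ITSN2 was also close in level, with means of 2.46, 1.81, 1.43 and 4.16 against 2.39, 1.94, 1.68 and 3.97 for ICAM1.

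Of 36 other genes of leukocyte adhesion (selectins, adhesion ligands, integrin partners and the proteins that link them to actin), limma called 0 promoters in either direction for ERβ minus mock in HT29 (0% of all promoters) and in SW480 (0.0901% higher and 0.0150% lower). CD99, 1 of the 36, read 0 in every track and so had no value to test. At an unadjusted p under 0.05, HT29 had 0 higher (1.24% of all promoters) and 3 lower (2.25%), and SW480 had 5 higher (9.39%) and 0 lower (2.23%). The list medians were -0.04 and 0.02 against -0.01 and 0.03 for all promoters. Between the mock lines 3 of the 36 were higher in SW480 (13.8% of all promoters) and 0 lower (2.42%). They were CDH1, the epithelial cadherin that binds the integrin of intraepithelial lymphocytes, by 0.62, ITGAE, a subunit of that integrin, by 0.52, and MADCAM1, the ligand of gut-homing lymphocytes, by 0.26 (limma adjusted p of 0.00208, 0.00730 and 0.0428). Between the ERβ lines 6 of the 36 were higher (24.2% of all promoters) and 0 lower (1.86%), so in neither comparison did the share of higher calls exceed that of all promoters. They were the same 3 by 0.48, 0.34 and 0.43, with EZR (ezrin) by 0.54, RDX (radixin) by 0.42 and EPCAM by 0.24 (limma adjusted p from 0.00342 to 0.0343). Inputs at CDH1, ITGAE and MADCAM1 were 0.50, 0.241 and 0.228 in HT29 mock, against 1.32, 0.604 and 0.621 in SW480 mock. With the input subtracted, 0 of the list were called between the mock lines (0.386% of all promoters higher and 2.21% lower). Between the ERβ lines, 5 were then called higher (26.3% of all promoters) and 1 lower (0.966%). With libraries scaled to tested bins, 9 were called higher between the mock lines (34.7% of all promoters) and 0 between the ERβ lines (0.991%). Without HT29 ERβ replicate 2 or 3, the count of 6 became 3 or 2.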

How the data were processed

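p65 ChIP-Seq was analysed in 12 ChIP libraries (4 groups of 3) and 4 inputs. The authors aligned reads to GRCh38 (hg38) with STAR and made tracks with HOMER (versions not given in the sources used here), and deposited coverage signal as tag density per base, scaled to one total for each library, with no value under 0.05. Read counts, and so depth, cannot be had from these values. Labels list the antibody on the inputs too, which were read as inputs from their titles.

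Signal was averaged in bins of 200 bp and over promoters (GENCODE release 44) in Python 3.11.15 (pysam 0.24.0, numpy 2.4.6 and pandas 2.3.3; figures by matplotlib 3.10.9). log2(signal + 1) was fitted with limma 3.58.1 (trend) in R 4.3.3, in 1 fit of the 12 ChIP libraries without covariates. Adjusted p-values are Benjamini-Hochberg over all 25545 tested bins or all 19970 promoters, and differences understate the change at low signal. Window means were compared by exact permutation tests. The fit was tested on simulated data with known changes in SW480 ERβ. It called 57% of 100 bins changed by 1 on the log2 scale and 99% of 100 changed by 2, with 7 unchanged bins called. Smaller changes were not simulated. Named were all 6 genes, the listed stretches except 1 that is not reported here, the bins called in ERβ minus mock, between the mock lines or in the interaction, the 5 promoters most like ICAM1 and called genes of the adhesion list; the bin 780 bp inside ICAM1, that upstream of TYK2 and that near S1PR2 were named after their values were seen.

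Genes, lists and tests were chosen with earlier results of these data known. The labels number the replicates 1 to 3 in each group without saying what a number shares, or whether replicates are separate cultures; the study calls them biological. Deviations of the 6 same-numbered pairs within a line correlated at 0.105 to 0.485, so the numbers were taken to pair mock and ERβ libraries within lines. The main fit does not use this pairing, which enters only the alternative with the replicate block within lines. In HT29, numbers 2 and 3 were not told apart, since mock replicate 2 correlated at 0.187 with ERβ replicate 2 and at 0.213 with ERβ replicate 3; between lines the 12 correlations were -0.06 to 0.04. Alternatives were other pseudocounts, scalings, filters, grids, promoter limits, input subtraction, replicate blocks, fits on 2 groups and leaving out each library; leaving out both HT29 libraries of number 1 and all alternatives for the adhesion list were added after seeing the data.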

Additional observations from a re-analysis of the deposited data

Results flagged for a closer look

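The ERβ effect differed between the lines by a test of the difference itself, the limma interaction term, in 3 of 25 bins (7.09% of all tested bins). For 1 of these the test is void, since the bin reached the level for testing only through the SW480 ERβ libraries, which leaves 2 of 19 bins, against 4.41% of such bins in the genome. With libraries scaled to tested bins none of the 3 passed (limma adjusted p of 0.176, 0.222 and 0.306 in the order below). At the ICAM1 promoter (chr19:10270801-10271000) the SW480 effect exceeded the HT29 effect by 1.67 on the log2 scale. At the bin 1420 bp upstream of ICAM1 it did so by 1.37, and at the bin 5728 bp upstream of TYK2 by 1.1. The last is the bin chosen through SW480 ERβ, and its difference is a description. SW480 ERβ libraries were above all SW480 mock libraries in each of the 3 bins, and in HT29 the means were lower with ERβ. The 3 bins were picked by the interaction term, so these directions are in part fixed by the choice. Of all 25 bins, 24 had a difference above 0 in SW480 and 5 in HT29. The median of the same term over all tested bins was 0.56. The term compares lines with unequal ERβ expression, higher in SW480 according to the study, and the part of this was not tested.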

How the results depend on the processing

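Over 107 results, 1671 values were recomputed; 1431 stayed on their side of the threshold without a called value turning, or within 1.5 times for a count, 118 lost a call, 39 gained one, 81 counts moved and 2 called values turned. The 2 were the mock line differences of ICAM2 (-0.086) and ICAM4 (-0.040) with the input subtracted. Of 1185 log2 differences, 66 changed sign, and apart from those 2 none of the 66 was called under either setting. The tracks hold no read counts, so single libraries are given without a counting interval.

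Listed bins became 3 in HT29 mock and 2 in HT29 ERβ at a minimum mean of 3, and 1 in SW480 mock at 6 times the input. Leaving out 1 library gave 4 to 10 bins in HT29 mock, 1 to 6 in HT29 ERβ and 7 to 16 in SW480 ERβ. For called bins of the windows, SW480 ERβ minus mock higher (5) became 1 with libraries scaled to tested bins, 10 with the input subtracted (8906 of all tested bins, against 4794), 3 with a mean of at least 1.5, 17 with the replicate block within lines, and 0 to 12 without 1 library. SW480 minus HT29 mock higher (0) became 5 and lower (3) became 1 when scaled to tested bins; lower became 7 with the input subtracted (7573 of all tested bins, against 6270), 0 without both HT29 libraries of number 1, and 0 to 5 without 1 library. SW480 minus HT29 ERβ higher (10) became 6 with a mean of at least 1.5 and 4 to 12 without 1 library, and lower (0) became 1 when scaled to tested bins. The interaction (3) became 0 when scaled to tested bins, 8 with the input subtracted (6304 of all tested bins, against 1812), 1 with the grid moved by 100 bp, 13 with the replicate block and 0 to 10 without 1 library.

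For promoters, SW480 ERβ minus mock higher (0) became 3 with the input subtracted (28.3% of all promoters, against 0.0901%) and 1 with the replicate block (1.30%), and lower (0) became 1 when scaled to tested bins (11.1%). The interaction (0) became 3 with the input subtracted (24.5% of all promoters) and 1 with the replicate block (0.0901%). Between the mock lines, 3 became 0 with the input subtracted (0.386% of all promoters called higher) or promoters of 250 and 50 bp. The 3 became 1 with a block on the number alone or without both HT29 libraries of number 1, and 0 to 1 without 1 library. Between the ERβ lines, 4 became 0 when scaled to tested bins (0.991% of all promoters called higher), 1 in a fit of 2 groups, 2 with a pseudocount of 0.25, scaling to unenriched bins, the number block or promoters of 250 and 50 bp, and 1 to 3 without 1 library. For the adhesion list, SW480 ERβ minus mock higher (0) became 7 with the input subtracted (28.3% of all promoters) and 1 with the replicate block (1.30%), and lower (0) became 4 when scaled to tested bins (11.1%). Between the mock lines, higher (3) became 9 when scaled to tested bins (34.7% of all promoters) and 0 with the input subtracted (0.386%), and lower (0) became 1 with a pseudocount of 0.5 or 0.25 or a fit of 2 groups and 0 to 1 without 1 library. Between the ERβ lines, higher (6) became 0 when scaled to tested bins (0.991% of all promoters) and 2 to 7 without 1 library, and lower (0) became 1 with the input subtracted (0.966%). The ICAM1 promoter bin gave 1.20 to 1.56 for SW480 ERβ minus mock, 1.00 to 1.48 between the ERβ lines and 1.36 to 1.92 for the interaction without 1 library; the interaction was 0.78 scaled to tested bins. The causes of these moves were not tested. Where no share of all bins or promoters stands beside a count, the count does not show whether calls moved in these genes alone. The replicate block changed no other call between mock and ERβ that is printed for a single bin or promoter than those given beside their values.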
